A study of Mus musculus with 35 samples.

Results

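The comparison described here is that of injured mice treated with PBS, 3 weeks against 1 week after injury, and it holds 9 of the 34 mice with values here. The members are the libraries with values whose labels read PBS at 1 week post injury (wpi), 5 mice, and PBS at 3 wpi, 4 mice, with 1 library per mouse. The mice were C57BL/6NCrl, aged 8 to 9 weeks when procedures began, and received a closed head injury, in which an electromagnetic impactor strikes the exposed, unopened skull. PBS (phosphate-buffered saline, the vehicle of the cell treatments) was injected into the left hippocampus 5 days after injury in both groups, so tissue was taken 2 days after the injection at 1 wpi and 16 days after it at 3 wpi. The injection track is therefore also younger at 1 wpi, and head injury and injection cannot be told apart in these mice. A further library labelled PBS at 3 wpi was excluded by the authors and was not analysed here. Used for reference were 5 Sham mice, 2 taken with the 1-week and 3 with the 3-week groups. They underwent the surgical procedure without the impact, and had neither injury nor injection. Also used were injured mice that received mesenchymal stromal cells (MSCs) or MSCs transfected with interleukin-4 mRNA (IL-4 MSCs), 5 at each time. The question was which genes of the injury response fell, which rose and which persisted without cell treatment.

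After a blow to the brain, damaged cells release signals that activate microglia, the resident phagocytes, and astrocytes, and that draw monocytes from blood. Activated astrocytes raise intermediate filaments such as GFAP, while microglia and macrophages raise lysosomal enzymes, complement and chemokines and divide. Such reactions may subside over weeks or persist for weeks to months. Neuronal and myelin transcripts can change with the loss of cells or within cells that were spared. In bulk tissue such as this, fewer cells of a type and less RNA per cell cannot be told apart.

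The libraries held between 30515434 and 41443988 estimated counts in the 9 PBS mice, with mitochondrially encoded genes at 5.24 to 6.09% of them. Levels are given as CPM, counts scaled to the depth of each library with TMM factors, and a level of 3 counts, 0.0724 to 0.0983 CPM here, was taken as the floor of detection, which allows for counting error only. The labels call the tissue left cortex, but it was cut around the injection site, and genes of other regions were present in every mouse. Tcf7l2, abundant in thalamus, lay at 51.2 to 92.4 CPM, and Prox1, abundant in the dentate gyrus, at 52.5 to 76.9 CPM. Ttr, the transthyretin of choroid plexus, lay between 292 and 906 CPM in 8 of the 9 mice and at 7.80 CPM in PBS 3 wpi replicate 1. The mean log2 CPM of 12 choroid plexus and ependyma markers was 0.89 in that mouse and 3.09 to 3.79 in the other 8. Its thalamus marker score was also the lowest of the 9, at 4.85 against 5.23 to 6.16. In the 9 marker lists of brain regions, meninges, skin, muscle and blood, 0 genes passed the test between the weeks.

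Between 1 and 3 wpi, falls outnumbered rises by far (edgeR's quasi-likelihood test on all 34 libraries, Benjamini-Hochberg adjusted p under 0.05). Of 17131 genes tested, 839 fell, which is 4.9%, and 105 rose, which is 0.613%. The falls were also larger. Their median log2 fold change was -0.68 and 217 of them fell at least 2-fold, whereas the median rise was 0.18 and 94.3% of the rises were under 0.5 on the log2 scale. The single rise of at least 2-fold was Gm26602, which had 0 counts in all 5 mice at 1 wpi and a mean of 0.288 CPM at 3 wpi. In 985 genes, 5.75% of those tested, each mouse at 3 wpi lay below each mouse at 1 wpi, and in 333, or 1.94%, each lay above. The 95% interval of the log2 fold change lay within -0.5 to 0.5 in 12681 genes, or 74% of those tested. Without PBS 3 wpi replicate 1, the mouse low in choroid plexus markers, 539 genes fell and 27 rose. That mouse also had the lowest scores at 3 wpi for reactive astrocytes, activated microglia and complement, at 2.59, 3.77 and 2.71. The part of each in these counts was not tested. With only the 2 PBS groups in the fit 645 fell and 30 rose.

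**Figure D1:**
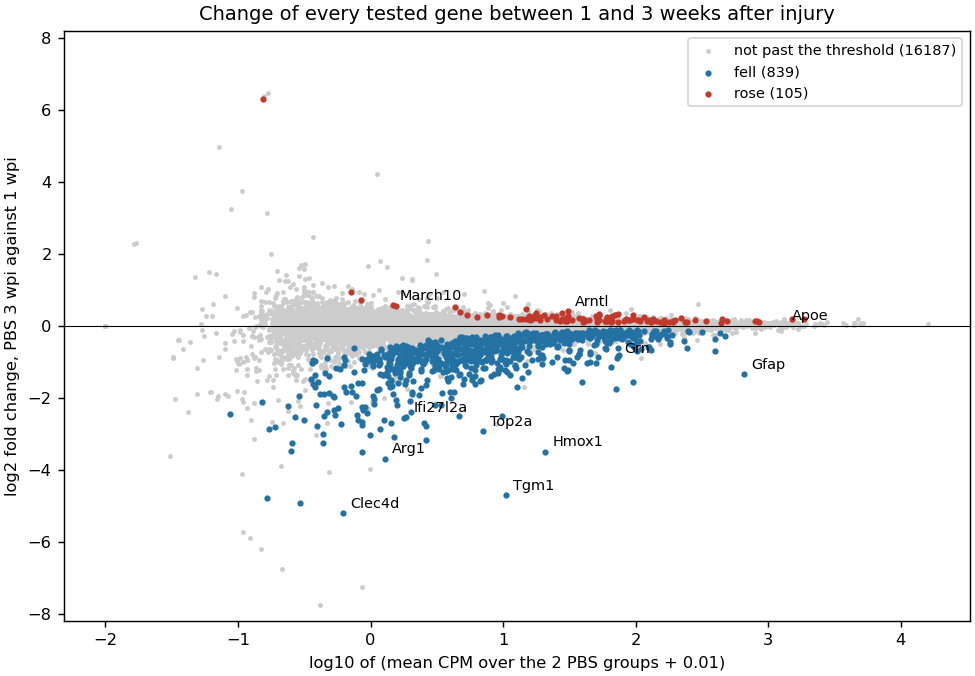
Log2 fold change of each tested gene between PBS at 3 wpi and 1 wpi (vertical) against the log10 of its mean CPM over both groups (horizontal). The 839 genes that fell (blue) reach far below 0, whereas the 105 that rose (red) lie close above it except for Gm26602, and genes that did not pass the threshold are grey.

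The genes that fell were mostly those that stood above Sham at 1 wpi. Of the 839, 786 were higher in PBS at 1 wpi than in Sham, a comparison in which 2357 of 17131 genes, or 13.8%, differed (1495 higher and 862 lower), and 3 of the 839 were still higher than Sham at 3 wpi. Their median log2 difference from Sham was 0.77 at 1 wpi and 0.08 at 3 wpi. Of the 105 genes that rose, 81 were lower than Sham at 1 wpi and 0 were lower at 3 wpi, and the median log2 difference went from -0.19 to -0.01. These comparisons share mice, so the 3 sets of values are not independent of each other. The choice of genes in the next sections was made from lists of known function compiled by hand, in which 168 of 496 tested genes fell and 6 rose.

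Among all genes at 1 CPM or more in either group whose mice did not overlap, the 8 largest falls were Clec4d, Tgm1, Arg1, Hcar2, Hmox1, Slfn4, Msr1 and Lilr4b. Most of these belong to myeloid cells. Hmox1, haem oxygenase 1, which breaks down haem (chromosome 8, 75093621 to 75100589, GRCm38), read 21.8, 48.6, 48.5, 59.9 and 12.6 CPM in the 5 mice at 1 wpi and 3.20, 3.05, 3.78 and 3.53 CPM in the 4 mice at 3 wpi. The levels at 3 wpi sat within the Sham range of 2.23 to 4.11 CPM, and the log2 fold change between the weeks was -3.49 ± 0.38 (SE, edgeR adjusted p = 6.99e-07). Msr1, the macrophage scavenger receptor, went from 1.33 to 4.90 CPM over the mice at 1 wpi to 0.231 to 0.434 CPM (log2 fold change -3.08, edgeR adjusted p = 1.59e-05). Arg1, arginase 1, a marker of alternatively activated macrophages (chromosome 10, 24915221 to 24927484), read 0.317, 2.98, 6.68, 1.26 and 0.616 CPM at 1 wpi and 0.132 to 0.262 CPM at 3 wpi. The mice at 1 wpi lay far apart, and the fall of 3.69 on the log2 scale passed with an edgeR adjusted p of 0.0122. Clec4d, a myeloid lectin, Hcar2, a niacin receptor of myeloid cells, Slfn4 and Lilr4b each had their highest level in PBS 1 wpi replicate 2, at 3.76, 5.11, 17.4 and 4.24 CPM, against 0.222 to 1.88 CPM over the other 4 mice and 4 genes. Clec4d at 3 wpi was at or under the floor of detection, so its fold change is not a size. Reads of Slfn4 and Lilr4b can be shared with closely related genes, and their estimated counts were not whole, which makes them uncertain. Without PBS 1 wpi replicate 2, Arg1, Hcar2, Slfn4 and Lilr4b did not pass.

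Astrocyte genes fell together, and 1 of the 20 tested, Gfap, still passed against Sham at 3 wpi. Of 20 tested genes of reactive astrocytes, 14 fell and 0 rose, and the median log2 fold change of the list was -0.88, against 0.01 over all genes tested. Gfap, the intermediate filament of astrocytes (chromosome 11, 102887336 to 102900912), read 822, 1203, 885, 954 and 860 CPM at 1 wpi and 319, 284, 427 and 459 CPM at 3 wpi. Both groups lay wholly above the Sham mice, at 156 to 216 CPM. The fall was -1.34 ± 0.19 on the log2 scale (SE, edgeR adjusted p = 2.51e-05). Vim, vimentin, fell from 142 ± 41.2 CPM (SD, n = 5) to 47.9 ± 11.4 CPM (SD, n = 4), with Sham at 29.3 to 39.2 CPM (edgeR adjusted p = 2.13e-06). Tgm1, transglutaminase 1, which cross-links proteins (chromosome 14, 55700009 to 55713926), read 8.43, 31.0, 21.8, 22.5 and 17.9 CPM at 1 wpi and 0.358, 0.360, 1.49 and 0.759 CPM at 3 wpi. The fall was -4.71 ± 0.42 on the log2 scale (SE, edgeR adjusted p = 2.99e-08). All 4 mice at 3 wpi were above the highest Sham mouse, at 0.269 CPM. Lcn2, lipocalin 2, did not pass (edgeR adjusted p = 0.255). It read 7.23 to 20.7 CPM at 1 wpi, and at 3 wpi 3 mice lay at 0.193 to 0.858 CPM while PBS 3 wpi replicate 2 lay at 7.42 CPM. Sham ranged from 0.0619 to 7.23 CPM. The same mouse had the highest astrocyte score at 3 wpi, 3.68 against 2.59 to 3.17 in the other 3. Sham scores ran from 2.425 to 2.913, a range that held PBS 3 wpi replicates 0 and 1, at 2.71 and 2.586. The top of that range was Sham replicate 4 alone. The other Sham mice lay at 2.425 to 2.439, below all 4 PBS mice at 3 wpi. Sham replicate 4 was also the highest Sham mouse in the monocyte and macrophage, complement, cytokine and type I interferon scores.

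**Figure D2:**
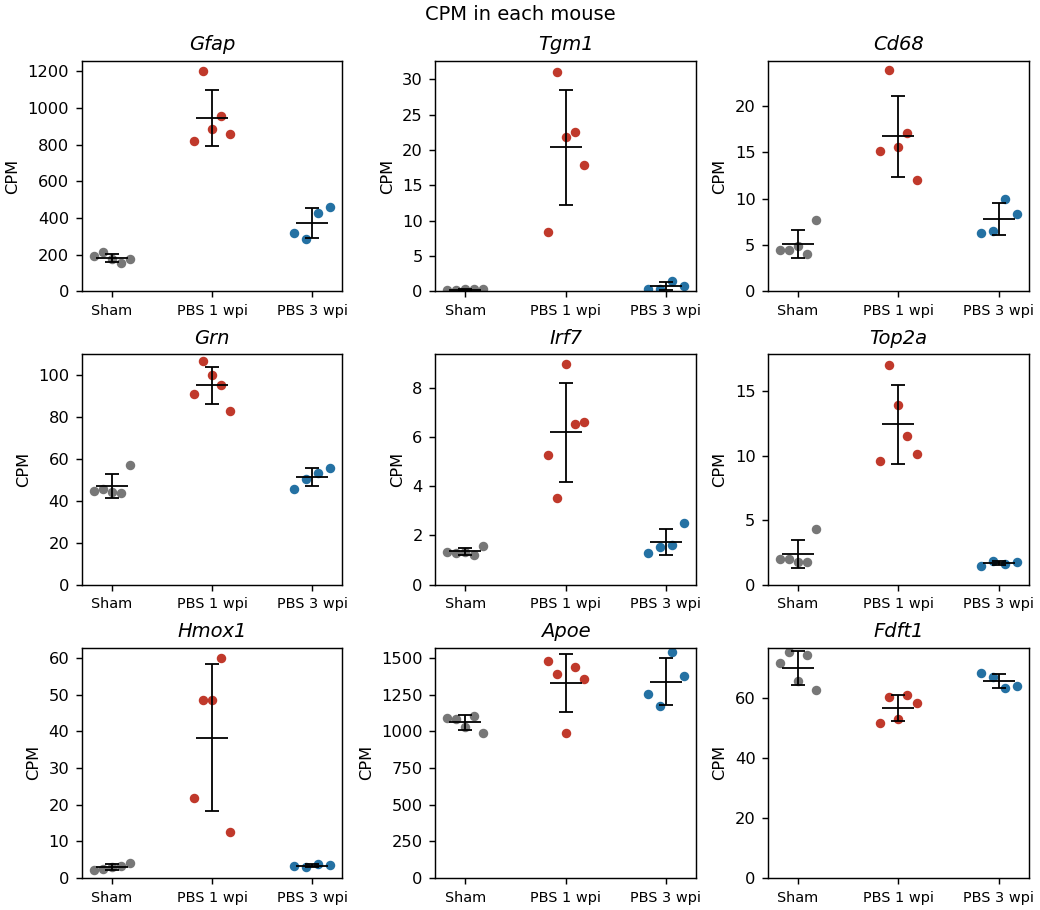
CPM of 9 genes in each Sham mouse (grey, n = 5), PBS mouse at 1 wpi (red, n = 5) and PBS mouse at 3 wpi (blue, n = 4), with the mean and SD in black. Gfap, Tgm1, Cd68, Grn, Irf7, Top2a and Hmox1 are lower in each mouse at 3 wpi than in each mouse at 1 wpi, Fdft1 is higher, and Apoe overlaps.

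Microglial genes fell in both the activated and the homeostatic list. Of 22 tested genes of activated microglia 15 fell, with a median log2 fold change of -0.61, and of 14 homeostatic genes 9 fell, with a median of -0.45. Cd68, a lysosomal glycoprotein of phagocytes, read 15.2, 23.9, 15.6, 17.1 and 12.1 CPM at 1 wpi and 6.28, 6.45, 9.95 and 8.38 CPM at 3 wpi, without overlap (log2 fold change -1.11 ± 0.18, SE, edgeR adjusted p = 1.08e-04). Ctsz, cathepsin Z, fell from 41.3 to 59.5 CPM over the mice at 1 wpi to 24.6 to 31.0 CPM (edgeR adjusted p = 2.06e-05), and Trem2, the lipid receptor of activated microglia, from 9.57 to 16.7 CPM to 6.53 to 9.54 CPM (edgeR adjusted p = 0.00317). The highest Trem2 level at 3 wpi, 9.54 CPM, was just under the lowest at 1 wpi. In the homeostatic list, Fcrls fell from 43.3 ± 6.58 CPM (SD, n = 5) to 18.5 ± 1.30 CPM (SD, n = 4), with Sham at 16.6 CPM on average (edgeR adjusted p = 2.13e-06). P2ry12, the purinergic receptor by which resting microglia sense damage, did not pass, at 35.3 ± 4.48 CPM (SD, n = 5) and 33.0 ± 1.56 CPM (SD, n = 4), with a 95% interval of the log2 fold change from -0.30 to 0.11.

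The lysosome list had smaller but more uniform falls. Of 24 tested genes 18 fell, with a median log2 fold change of -0.37. Grn, progranulin, read 90.6, 106, 99.7, 95.0 and 82.6 CPM at 1 wpi and 45.6, 50.1, 53.3 and 55.4 CPM at 3 wpi (log2 fold change -0.89 ± 0.09, SE, edgeR adjusted p = 7.89e-08). Sham lay at 43.8 to 57.1 CPM, a range that held all 4 mice at 3 wpi. The lysosome list score was 5.969 in Sham replicate 4 and 5.663 to 5.706 in the other Sham mice, against 5.766 to 5.975 in PBS at 3 wpi. Gusb, beta-glucuronidase, fell by 0.80 and Ctsa, cathepsin A, by 0.25 on the log2 scale (edgeR adjusted p = 1.03e-05 and 5.18e-04). Apoe, the main lipid carrier of the brain, did not fall. It averaged 1330 ± 197 CPM (SD, n = 5) at 1 wpi and 1337 ± 160 CPM (SD, n = 4) at 3 wpi, with a 95% interval of the log2 fold change from -0.20 to 0.22, whereas Plin2, a coat protein of lipid droplets, fell from 7.42 to 19.6 CPM over the mice to 3.77 to 5.34 CPM (edgeR adjusted p = 5.74e-05). In the list of lipid efflux and apolipoproteins, 6 of 15 genes fell.

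Genes listed for monocytes and macrophages fell, as did chemokines and their receptors. The median log2 difference from Sham went from 1.39 at 1 wpi to 0.16 at 3 wpi for the first and from 1.87 to 0.51 for the chemokines. Whether these transcripts came from infiltrating or resident cells was not tested. Of 22 tested monocyte and macrophage genes 14 fell, against 4.9% of all genes tested, with a median log2 fold change of -1.14. In 21 of them each mouse at 3 wpi lay below each mouse at 1 wpi, against 5.75% of all genes. Adgre1, which encodes F4/80, read 13.3, 15.8, 12.3, 13.6 and 10.5 CPM at 1 wpi and 5.24, 5.47, 6.29 and 5.91 CPM at 3 wpi (log2 fold change -1.19, edgeR adjusted p = 7.86e-06). Fcgr1, a high-affinity receptor for IgG, fell from 7.93 ± 0.979 CPM (SD, n = 5) to 3.13 ± 0.505 CPM (SD, n = 4), with Sham at 2.85 CPM on average (edgeR adjusted p = 1.57e-05). Cd14, a co-receptor for lipopolysaccharide, fell by 1.22 on the log2 scale (edgeR adjusted p = 0.0464), with PBS 1 wpi replicate 2 at 9.83 CPM and the other 4 mice at 3.83 to 4.57 CPM. Cd14 lost the call without any one of 10 of the 14 PBS and Sham mice, and without PBS 1 wpi replicate 2, 10 of the 22 genes fell.

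Of 17 tested chemokines and chemokine receptors 10 fell, with a median log2 fold change of -1.84. Ccl2, the main attractant of monocytes, read 1.05, 0.769, 2.38, 1.19 and 1.47 CPM at 1 wpi and 0.523, 0, 0.241 and 0.0660 CPM at 3 wpi (edgeR adjusted p = 0.00195). Ccl12 went from 1.43 to 2.42 CPM to 0.110 to 0.495 CPM and Cxcl10, an interferon-induced attractant of T cells, from 0.986 to 3.60 CPM to 0.165 to 0.675 CPM (edgeR adjusted p = 5.74e-05 and 2.40e-04). Some of the levels at 3 wpi are at or under the floor of detection. Of the 17, 6 fell without PBS 1 wpi replicate 2, and 6 without PBS 3 wpi replicate 1.

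Among cytokine and innate signalling genes 12 of 18 fell, and among complement genes 7 of 16. Without PBS 3 wpi replicate 0, 7 of the 18 fell. The sensors of nucleic acids Tlr13 and Tlr7 fell by 1.60 and 1.39 on the log2 scale (edgeR adjusted p = 1.34e-06 and 2.23e-06). Il1b, interleukin-1 beta, did not pass (edgeR adjusted p = 0.143), with 5.33 CPM in PBS 1 wpi replicate 2, 0.254 to 1.05 CPM in the other 4 mice at 1 wpi and 0.220 to 0.361 CPM at 3 wpi. C1qa and C1qc, chains of the initiator of the classical complement pathway, fell from 51.6 to 78.5 and 55.7 to 79.2 CPM over the mice to 31.0 to 42.4 and 28.2 to 36.8 CPM (edgeR adjusted p = 0.00116 and 1.30e-04). C3ar1, a receptor for a fragment of C3, fell by 1.49 on the log2 scale (edgeR adjusted p = 7.77e-05).

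Of 18 tested T and NK cell genes 1 fell (5.56%, against 4.9% of all genes tested), the chemokine Ccl5. Its call was lost without PBS 1 wpi replicate 3 or PBS 3 wpi replicate 0 or 1. Cd3e, the invariant chain of the T cell receptor complex, lay at 0.129 to 0.168 CPM at 1 wpi and 0.0827 to 0.165 CPM at 3 wpi. Of 9 tested neutrophil genes 0 passed. S100a8, an abundant neutrophil protein, read 4.50 CPM in PBS 1 wpi replicate 2 and 0.733 to 1.05 CPM in the other 4 mice, against 0.220 to 0.792 CPM at 3 wpi.

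**Figure D3:**
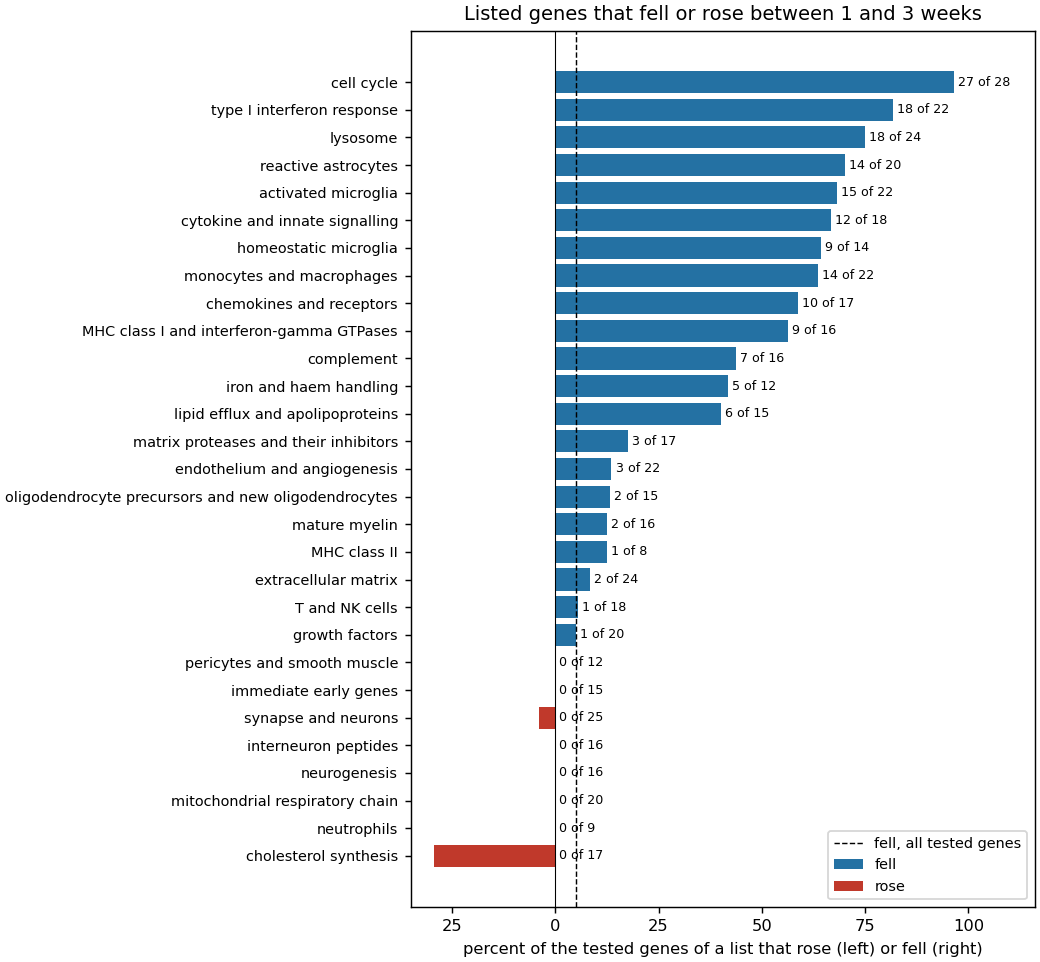
Percent of the tested genes of each of 29 response lists that fell (blue, right of 0) or rose (red, left of 0) between PBS at 1 and 3 wpi, with the numbers that fell. The dashed line is the 4.9% of all tested genes that fell, which cell cycle, type I interferon and lysosome genes exceed most.

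Interferon-stimulated genes carry a short element in their promoters, which the factors downstream of the interferon receptor bind, and many genes of mitosis carry CCAAT boxes. Promoters of 3 genes that fell are shown because they hold several such elements, from RefSeq on GRCm38.p6, 250 bases before and 50 bases after the start, 5′ to 3′ on the strand of the gene. Capitals mark the interferon-stimulated response element, searched on both strands as GAAA, any 2 bases and GAAA, in Isg15 (chr4:156200769-156201068, minus strand, 3 overlapping matches) and Ifit3 (chr19:34583279-34583578, plus strand, 2 matches), and the CCAAT box on both strands in Ccnb2 (chr9:70421505-70421804, minus strand, 3 matches).
Isg15: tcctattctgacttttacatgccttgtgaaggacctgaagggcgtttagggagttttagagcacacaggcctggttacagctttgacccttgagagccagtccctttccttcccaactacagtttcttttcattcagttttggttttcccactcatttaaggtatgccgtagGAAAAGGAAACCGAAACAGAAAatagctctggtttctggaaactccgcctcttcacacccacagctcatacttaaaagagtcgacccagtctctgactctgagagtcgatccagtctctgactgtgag
Ifit3: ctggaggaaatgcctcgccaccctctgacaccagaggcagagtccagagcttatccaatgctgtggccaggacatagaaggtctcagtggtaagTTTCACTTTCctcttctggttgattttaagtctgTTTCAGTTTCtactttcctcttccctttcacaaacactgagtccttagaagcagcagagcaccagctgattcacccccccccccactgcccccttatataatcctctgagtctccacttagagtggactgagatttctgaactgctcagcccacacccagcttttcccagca
Ccnb2: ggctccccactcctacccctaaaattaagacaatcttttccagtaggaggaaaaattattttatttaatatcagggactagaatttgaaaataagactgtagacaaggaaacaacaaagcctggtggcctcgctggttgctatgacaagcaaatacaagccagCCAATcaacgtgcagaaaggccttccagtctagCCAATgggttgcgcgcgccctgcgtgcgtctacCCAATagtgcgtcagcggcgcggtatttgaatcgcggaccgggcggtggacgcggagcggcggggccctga
The response element was found in 9 of the 15 listed type I interferon genes with a promoter in the table (60.0%), in 3.17% of the 13267 tested genes with one, and in 3.49% of all 27025. The CCAAT box was found in 19 of 22 cell cycle promoters (86.4%), in 38.2% of tested genes and in 37.9% of all. The cell cycle genes homology region, searched as TTTGAA, was found in 12 of the same 22 (54.5%), in 13.3% of tested genes and in 18.1% of all. A sterol response element, searched as TCAC, any base and CCAC, was found in 1 of 11 cholesterol synthesis promoters (9.1%), in 1.08% of tested genes and in 1.22% of all. The first promoter listed for each gene was used, and a match is a description of these letters only.

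Interferon genes fell, and their median log2 difference from Sham went from 1.24 at 1 wpi to 0.17 at 3 wpi. Of 22 tested genes of the type I interferon response 18 fell, against 4.9% of all genes tested, and the median log2 fold change was -0.9998. All 22 had been above Sham at 1 wpi, against 1495 of all 17131 genes. Irf7, the transcription factor that amplifies the response (chromosome 7, 141262706 to 141266481), read 5.26, 3.53, 8.96, 6.54 and 6.62 CPM at 1 wpi and 1.29, 1.54, 1.61 and 2.51 CPM at 3 wpi, with Sham at 1.21 to 1.57 CPM (log2 fold change -1.83 ± 0.26, SE, edgeR adjusted p = 2.28e-05). Isg15, a ubiquitin-like modifier, fell from 4.35 ± 1.17 CPM (SD, n = 5) to 2.19 ± 0.185 CPM (SD, n = 4), and Ifit3, which binds viral RNA with its partners, from 13.7 ± 2.05 CPM to 6.81 ± 0.723 CPM (edgeR adjusted p = 0.00475 and 0.00405). Both were chosen for their promoters after their values were seen. By the fixed rule, Ifi27l2a went from 2.47 to 4.28 CPM over the mice to 0.410 to 0.661 CPM, and Irf9 from 14.01 to 17.8 CPM to 10.1 to 11.7 CPM (edgeR adjusted p = 1.95e-05 and 2.28e-05).

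Among genes of antigen presentation, the median log2 fold change was -0.61 for class I and the interferon-gamma GTPases and -0.63 for class II, and a difference between the classes was not tested. Of 16 tested genes of MHC class I and the interferon-gamma GTPases 9 fell, such as H2-K1, a class I heavy chain, from 33.7 to 46.1 CPM to 21.2 to 29.0 CPM (edgeR adjusted p = 0.0393), Irgm1 by 0.85 and Psmb8, an immunoproteasome subunit, by 1.25 on the log2 scale. Counts of H2-K1 and Irgm1 were not whole and may share reads with relatives, and H2-K1 lost the call without any one of 6 of the 9 PBS mice. Of the 16, 5 fell without PBS 1 wpi replicate 2, and 5 without PBS 3 wpi replicate 0 or 1. Of 8 tested class II genes 1 fell (12.5%, against 4.9% of all genes tested), the protease Ctss, and 0 did without PBS 3 wpi replicate 1. Cd74, the invariant chain of class II, read 7.64, 8.85, 10.2, 8.54 and 8.24 CPM at 1 wpi and 5.79, 3.73, 4.92 and 8.58 CPM at 3 wpi, with Sham at 2.54 to 3.96 CPM. PBS 3 wpi replicate 3 lay within the range of 1 wpi, and the groups overlapped (edgeR adjusted p = 0.556, 95% interval of the log2 fold change from -1.51 to 0.31).

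**Figure D4:**
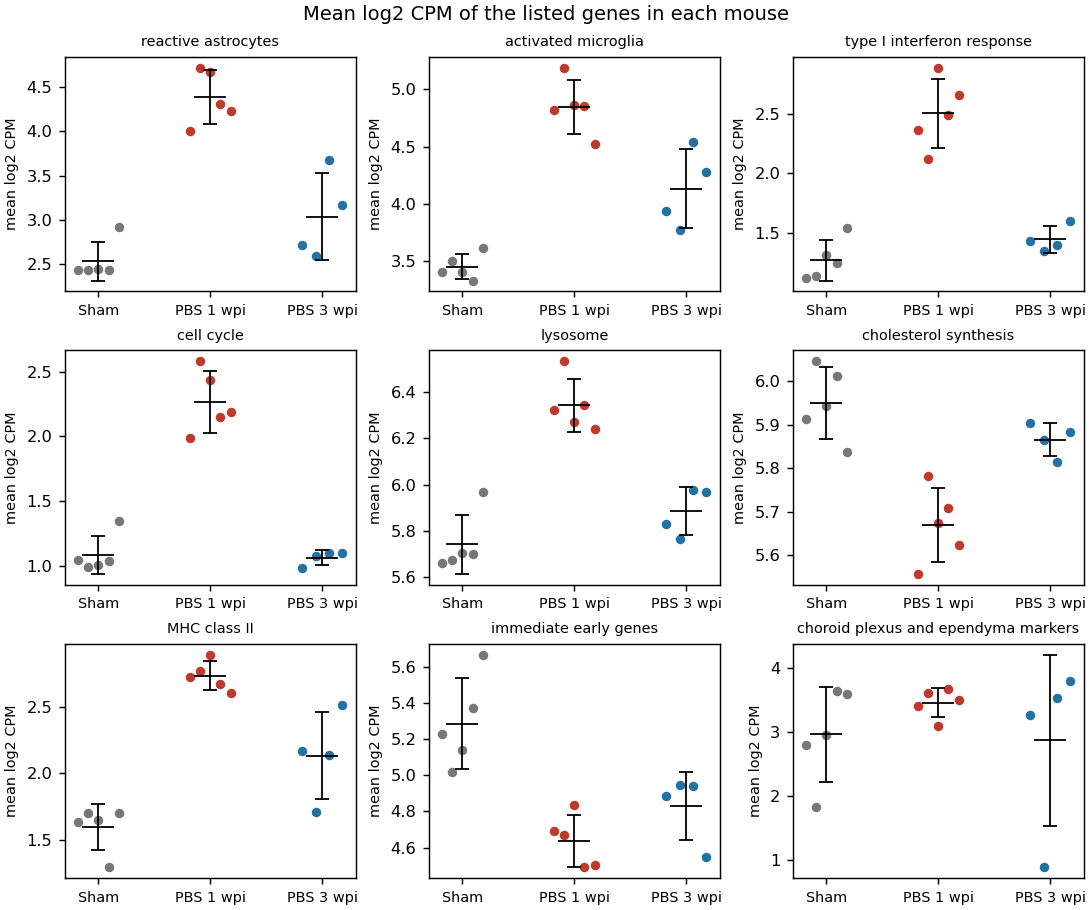
Mean log2 CPM of the genes of 9 lists in each Sham mouse (grey), PBS mouse at 1 wpi (red) and PBS mouse at 3 wpi (blue), with the group mean and SD in black. Cell cycle scores at 3 wpi, 0.98 to 1.10, lie in the Sham range of 0.99 to 1.35 except for 1 mouse just under it. The top of that range is Sham replicate 4 alone. The other Sham mice, at 0.99 to 1.04, lie below PBS 3 wpi replicates 1, 2 and 3. Reactive astrocyte scores at 3 wpi spread from 2.59 to 3.68, and 1 mouse at 3 wpi is low in choroid plexus markers.

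Of 28 tested cell cycle genes 27 fell, the largest share of the 29 response lists, with a median log2 fold change of -1.08. Top2a, the topoisomerase of dividing cells (chromosome 11, 98992943 to 99024189), read 9.57, 17.1, 13.9, 11.5 and 10.1 CPM at 1 wpi and 1.43, 1.80, 1.61 and 1.72 CPM at 3 wpi (log2 fold change -2.93 ± 0.27, SE, edgeR adjusted p = 4.54e-08). Of the 4 mice at 3 wpi, 3 were below the lowest Sham mouse, at 1.73 CPM. Mki67, which encodes the proliferation antigen Ki-67, read 11.7 to 24.9 CPM at 1 wpi and 2.67 to 3.21 CPM at 3 wpi, with Sham at 2.81 to 7.26 CPM (edgeR adjusted p = 6.69e-07). Ccnb2, a mitotic cyclin whose promoter is printed above, fell from 1.01 to 2.91 CPM to 0.655 to 0.844 CPM (edgeR adjusted p = 4.30e-05). The gene that did not pass was Ccne2, a cyclin of entry into S phase, at a log2 fold change of -0.12. Leaving out any 1 of the PBS mice, between 24 and 27 of the 28 fell.

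Most matrix, vessel and growth factor genes did not pass the test. The share that fell was 8.33% for matrix genes, 17.6% for proteases and inhibitors, 13.6% for endothelial genes and 5% for growth factors. Over all genes tested it was 4.9%, so the count for growth factors was near that share. The 95% interval lay within -0.5 to 0.5 in 11 of 24 matrix genes, 8 of 17 proteases and inhibitors, 15 of 22 endothelial genes and 9 of 20 growth factors, against 74% of all genes. Of 24 tested extracellular matrix genes 2 fell, Fn1, fibronectin, from 115 to 178 CPM over the mice to 73.8 to 98.2 CPM, and Lamc1, a laminin chain, from 55.7 to 65.3 CPM to 50.5 to 54.0 CPM (edgeR adjusted p = 0.0302 and 0.0104). The call of Fn1 was lost without any one of 5 of the 9 PBS mice. Col1a1 did not pass (edgeR adjusted p = 0.153), with 56.2 CPM in PBS 1 wpi replicate 2 and 27.2 to 32.8 CPM in the other 4 mice, against 17.4 to 24.6 CPM at 3 wpi. Among 17 matrix proteases and inhibitors 3 fell. Timp1, an inhibitor of metalloproteinases, read 3.55, 10.6, 10.7, 6.85 and 7.505 CPM at 1 wpi and 0.909, 1.47, 1.81 and 1.32 CPM at 3 wpi (edgeR adjusted p = 1.43e-05). Mmp2 did not pass, at 4.20 ± 0.356 CPM (SD, n = 5) and 3.52 ± 0.737 CPM (SD, n = 4).

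Of 22 endothelial genes 3 fell, and of 12 pericyte and smooth muscle genes 0 passed. Vwf, von Willebrand factor, fell from 46.6 ± 4.15 CPM (SD, n = 5) to 25.5 ± 1.76 CPM (SD, n = 4), and Vcam1, an adhesion molecule for leukocytes, from 37.3 ± 3.09 to 29.2 ± 4.62 CPM (edgeR adjusted p = 0.0101 and 0.0266). Pecam1, the general endothelial marker, lay at 19.5 to 21.9 CPM and 18.1 to 19.9 CPM (edgeR adjusted p = 0.593). Of 20 growth factors 1 fell, Tgfb1, by 0.53 on the log2 scale (edgeR adjusted p = 0.0143), while Bdnf read 21.99 ± 1.61 CPM (SD, n = 5) and 24.8 ± 1.96 CPM (SD, n = 4). Of 12 tested genes of iron and haem handling 5 fell, among them Ftl1, the ferritin light chain, from 246 to 364 CPM to 178 to 220 CPM (edgeR adjusted p = 1.89e-04).

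In oligodendrocytes and their precursors few genes passed. The share that fell was 12.5% of mature myelin and 13.3% of precursor genes, against 4.9% of all genes tested. Of 16 mature myelin genes 2 fell, Cldn11, a tight-junction protein of the myelin sheath, by 0.45 and Trf, transferrin, by 0.37 on the log2 scale (edgeR adjusted p = 0.00119 and 0.0243), while Mbp, myelin basic protein, averaged 2192 ± 211 CPM (SD, n = 5) and 2210 ± 232 CPM (SD, n = 4). Of 15 precursor genes 2 fell, Vcan by 0.31 and Olig1 by 0.26 (edgeR adjusted p = 0.0144 and 0.0227). In the neurogenesis list 0 of 16 genes passed, and Dcx, a marker of migrating neuroblasts, lay at 37.1 to 48.9 CPM at 1 wpi and 42.7 to 51.9 CPM at 3 wpi. The counts of 1 to 3 in these lists depend on single mice. Leaving out 1 PBS mouse at a time, 1 to 3 matrix genes, 1 to 3 endothelial genes, 0 to 3 growth factors, 1 or 2 myelin genes and 0 to 4 precursor genes fell.

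The genes that rose were few and changed by small amounts. The 8 largest rises among genes at 1 CPM or more without overlap were Olfr137, March10, Gm29695, Arntl, Il1rapl2, Cckbr, Pls1 and Sytl2, with log2 fold changes between 0.33 and 0.71. Arntl, the circadian transcription factor also called BMAL1 (chromosome 7, 113207465 to 113314126), read 28.4, 24.3, 26.8, 27.3 and 25.6 CPM at 1 wpi and 35.5, 35.0, 35.2 and 35.6 CPM at 3 wpi, with Sham at 33.8 to 40.0 CPM (log2 fold change 0.42 ± 0.05, SE, edgeR adjusted p = 8.71e-06). Cckbr, the receptor of cholecystokinin in the brain, rose from 24.2 ± 3.27 CPM (SD, n = 5) to 31.2 ± 2.76 CPM (SD, n = 4), and Sytl2, a synaptotagmin-like protein, from 46.8 ± 5.03 to 58.9 ± 4.87 CPM (edgeR adjusted p = 0.00201 and 0.0296). Olfr137 and Gm29695 had estimated counts that were not whole and may share reads with other genes. Of the 8, Arntl, Cckbr and Pls1 passed when any 1 mouse was left out, and the other 5 each lost the call without at least 1 mouse.

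Cholesterol synthesis held 5 of the 6 listed genes that rose. Of 17 tested genes 5 rose, against 0.613% of all genes tested, and 0 fell. In 7 each mouse at 3 wpi lay above each mouse at 1 wpi, against 1.94% of all genes. At 1 wpi 14 had been below Sham, against 862 of all 17131 genes. Fdft1, squalene synthase (chromosome 14, 63145150 to 63179578), read 51.6, 60.5, 53.0, 61.0 and 58.4 CPM at 1 wpi and 68.5, 67.1, 63.4 and 64.3 CPM at 3 wpi, with Sham at 62.9 to 75.6 CPM (log2 fold change 0.21 ± 0.06, SE, edgeR adjusted p = 0.0278). Nsdhl, a later enzyme of the pathway, rose from 13.47 to 17.96 CPM to 18.1 to 19.1 CPM (edgeR adjusted p = 0.0185). The other 3 were Idi1, Insig1, which senses sterols, and Srebf2, the transcription factor of the pathway, at log2 fold changes of 0.28, 0.32 and 0.16. Fdft1 lost the call without PBS 1 wpi replicate 0 or 2 or PBS 3 wpi replicate 0 or 1, and Nsdhl without PBS 1 wpi replicate 0 or PBS 3 wpi replicate 0 or 1. The median over the list was 0.20, against 0.01 over all genes tested.

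Most neuronal genes did not pass the test. Of 25 tested synaptic and neuronal genes 1 rose, Snap25, a protein of vesicle fusion, from 1755 ± 152 CPM (SD, n = 5) to 2003 ± 128 CPM (SD, n = 4) (edgeR adjusted p = 0.0337), a call lost without any one of 6 of the 9 PBS mice, and all 25 had a 95% interval within -0.5 to 0.5. Of 16 interneuron genes 0 passed, and the estimates ran from 0.03 to 0.44 with a median of 0.18. In 5 the interval lay within -0.5 to 0.5, against 74% of all genes tested. Of the 16, 7 were below Sham at 1 wpi, against 862 of all 17131 genes, where Sham pools the mice of both weeks. The list scores (mean log2 CPM) of the 2 Sham mice of 1 week were both 4.6, within the PBS range at 1 wpi of 4.26 to 4.65. Those of the 3 Sham mice of 3 weeks, whose striatum marker scores were also higher, were 4.88 to 4.94. The part of tissue content in the 7 was not tested. Of 20 nuclear genes of the respiratory chain 0 passed, and the interval lay within -0.5 to 0.5 in all 20. Immediate early genes, which neurons raise with firing, were below Sham at 1 wpi in 12 of 15, against 862 of all 17131 genes tested. Between the weeks 0 of the 15 passed, and 7 intervals lay within -0.5 to 0.5, against 74% of all genes. The list score was 5.672 in Sham replicate 4, 5.017 to 5.376 in the other Sham mice and 4.49 to 4.836 in PBS at 1 wpi. Fos read 16.3, 18.8, 19.3, 12.97 and 10.1 CPM at 1 wpi and 27.7, 19.7, 22.4 and 12.9 CPM at 3 wpi, with Sham at 23.7 to 40.1 CPM, so that the weeks overlapped (edgeR adjusted p = 0.293). The list median against Sham was -0.71 at 1 wpi and -0.50 at 3 wpi.

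**Figure D5:**
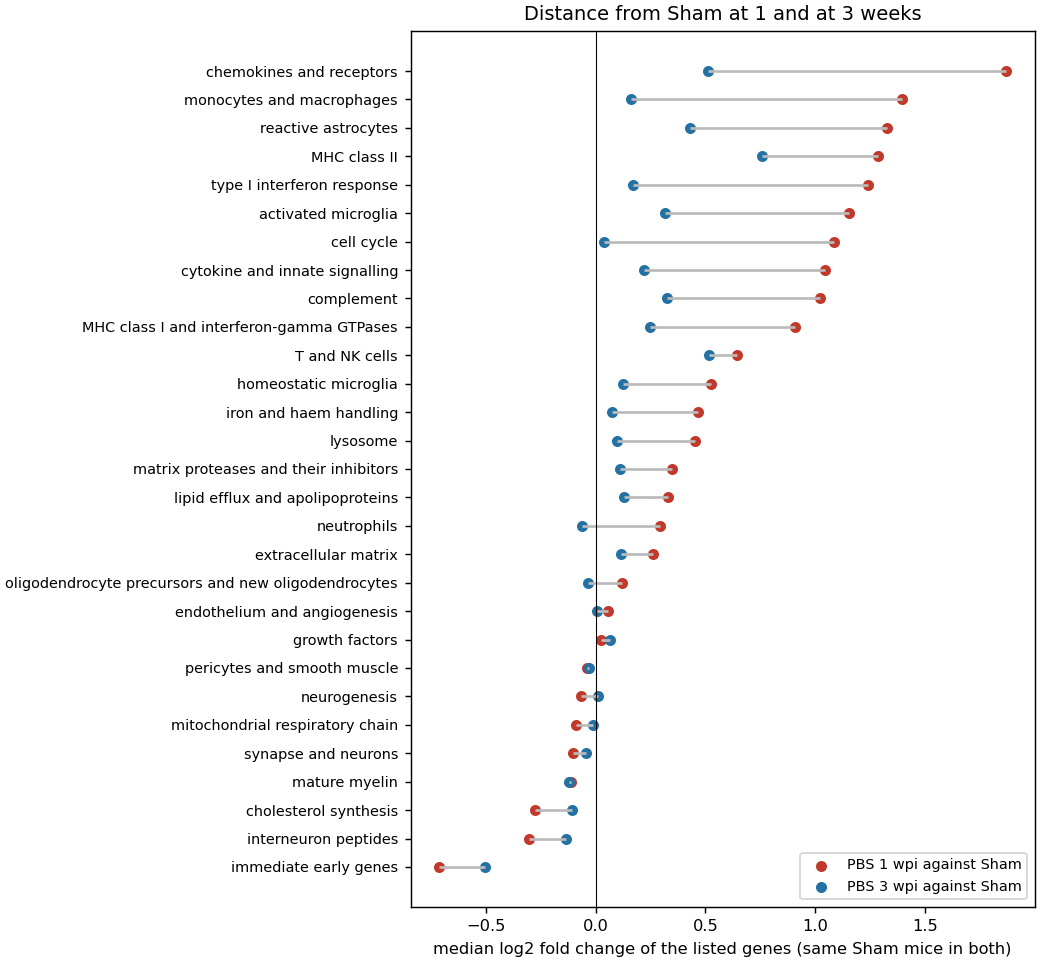
Median log2 fold change against the same 5 Sham mice of the genes of each of 29 lists, in PBS at 1 wpi (red) and 3 wpi (blue). Chemokines go from 1.87 to 0.51 and cell cycle genes from 1.08 to 0.04. MHC class II goes from 1.29 to 0.76 and immediate early genes from -0.71 to -0.50, and in both lists 0 genes passed against Sham at 3 wpi.

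Against Sham, 5 genes, or 0.0292% of those tested, differed in PBS at 3 wpi. Gfap, C4b, Ly9 and Itgax were higher, and Pcsk1 was lower. C4b, complement component 4 (chromosome 17, 34728380 to 34743882), read 120, 142, 132, 123 and 114 CPM at 1 wpi and 67.2, 52.2, 93.1 and 99.7 CPM at 3 wpi, all above Sham at 26.8 to 41.6 CPM (log2 difference at 3 wpi from Sham 1.24, edgeR adjusted p = 0.00402). It also fell between the weeks (edgeR adjusted p = 0.0206), except without PBS 1 wpi replicate 1 or PBS 3 wpi replicate 0 or 1. Itgax, the integrin CD11c of activated microglia and dendritic cells, read 2.79, 2.04, 2.47, 1.82 and 0.938 CPM at 1 wpi and 1.43, 0.590, 2.48 and 2.08 CPM at 3 wpi, with Sham at 0.134 to 0.525 CPM. Its weeks overlapped (edgeR adjusted p = 0.797 between the weeks and 0.0413 at 3 wpi against Sham). Ly9, a lymphocyte receptor of the SLAM family, lay at 1.57 to 2.22 CPM at 1 wpi, 0.360 to 1.42 CPM at 3 wpi and 0.0738 to 0.432 CPM in Sham. Pcsk1, a convertase that processes neuropeptides, read 43.9 to 52.1 CPM at 1 wpi and 50.8 to 53.3 CPM at 3 wpi, both below Sham at 61.3 to 71.9 CPM (log2 difference at 3 wpi -0.35, edgeR adjusted p = 0.0293). This count depends on single mice. It was 0 without PBS 3 wpi replicate 2 and without replicate 3, 1 or 2 when any of the 5 Sham mice was left out, and 29 against the 3 Sham mice of the same week.

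Some listed genes were high in some or all mice at 3 wpi without passing against Sham, and these were named after their values were seen. C3, the central complement component, read 8.27 to 19.9 CPM at 1 wpi and 2.51, 1.18, 36.0 and 6.57 CPM at 3 wpi, with Sham at 1.03 to 2.35 CPM (edgeR adjusted p = 0.394 at 3 wpi). Gpnmb, a glycoprotein of lipid-laden phagocytes, read 8.27 to 45.2 CPM and then 3.42, 4.00, 34.2 and 7.46 CPM. In both genes the mean at 3 wpi rests on PBS 3 wpi replicate 2. Clec7a, the microglial receptor dectin-1, was more even, at 2.29 to 4.37 CPM at 1 wpi and 1.46, 1.41, 3.69 and 3.50 CPM at 3 wpi, all above Sham at 0.443 to 0.648 CPM (log2 difference at 3 wpi 2.26, edgeR adjusted p = 0.0561). Cst7, an inhibitor of cathepsins, fell between the weeks (edgeR adjusted p = 0.0455) and lay at 0.426 to 1.29 CPM at 3 wpi, above Sham at 0.0619 to 0.185 CPM.

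To choose genes without the PBS mice, those higher in MSC mice at 1 wpi than in Sham were taken. The MSC mice also received injected cells, so these genes are not of injury alone and may include genes that were not raised in PBS. These were 1876, or 11% of those tested. In PBS, 791 of them fell (42.2%, against 4.9% of all genes) and 0 rose, and 801 (42.7%, against 74% of all genes) kept within -0.5 to 0.5. Of the 504 that were at least 2-fold higher, 324 fell (64.3%) and 4 kept within that interval. Of those 4, 3 (Hoxc10, Hoxa10 and Hoxa9) had 0 counts in each PBS mouse, so their interval carries no information. The kept genes named by rule were otherwise Bgn, Casp12 and Thbs2. Bgn, the proteoglycan biglycan, lay at 17.9 to 21.3 CPM at 1 wpi and 14.6 to 19.8 CPM at 3 wpi, Thbs2, the matricellular thrombospondin 2, at 11.1 to 17.1 and 10.4 to 13.1 CPM, and Casp12, a caspase of the endoplasmic reticulum, at 1.13 to 1.51 and 0.964 to 1.52 CPM. Of 1181 genes lower in MSC mice at 1 wpi than in Sham, 0 fell in PBS and 71 rose (6.01%, against 0.613% of all genes).

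The change in PBS was then set beside that in the other groups. In MSC mice 845 genes, or 4.93%, fell between the weeks, and 533 genes fell in both, 63.5% of those in PBS and 63.1% of those in MSCs. In a test of the difference itself, 0 genes, or 0% of those tested, changed differently in PBS than in MSCs by edgeR, with 572 at an unadjusted p under 0.05, 6 past the threshold by DESeq2 and 0 by limma-voom. The change in PBS differed from that in IL-4 MSCs in 808 genes, or 4.72%. The 5 with the smallest p were Ccl9, Anpep, Ccl24, Mrc1 and Mgl2, most of which mark alternatively activated macrophages. Mrc1, which encodes CD206, averaged 9.48 and 6.60 CPM in PBS at 1 and 3 wpi and 91.5 and 6.96 CPM in IL-4 MSCs, and the difference of the changes was 3.20 ± 0.26 on the log2 scale (SE, edgeR adjusted p = 1.34e-09). At 3 wpi both groups were therefore near the Sham mean of 6.91 CPM. Of the 22 type I interferon genes 17 changed differently in PBS and IL-4 MSCs, and of the 28 cell cycle genes 2 did.

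The Sham mice of both weeks were compared in the same way. Between the 2 Sham mice of 1 week and the 3 of 3 weeks, 16 genes, or 0.0934%, differed. The change in PBS differed from that in Sham in 896 genes, or 5.23%, of which 618 were more negative in PBS. The 5 with the smallest p were Tlr7, Top2a, Cldn11, Uhrf1, which maintains DNA methylation, and Kif11, a spindle motor. Top2a changed by -2.93 on the log2 scale in PBS and by 0.41 in Sham, a difference of -3.34 ± 0.47 (SE, edgeR adjusted p = 3.64e-04). Cldn11 changed by -0.45 in PBS, so part of its difference of -0.84 lay in Sham. Mature myelin scores were 6.98 and 7.03 in the 2 Sham mice of 1 week and 7.18 to 7.30 in the 3 of 3 weeks. The Sham weeks also differed in tissue content, with striatum marker scores of 3.06 and 3.07 in the 2 mice of 1 week and 4.78 to 5.07 in the 3 of 3 weeks. The count of genes that changed differently was 371 with the striatum score, 135 with the choroid plexus score and 79 without Sham replicate 1, where a single Sham mouse of 1 week is left and is assumed to vary like the other groups.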

How the data were processed

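RNA was sequenced from tissue around the injection site as single libraries per mouse, with paired reads of 50 bases. Per the submitters' processing notes, cutadapt 2.4, FastQC 0.11.8, kallisto 0.46, sleuth 0.30 and R 3.6.1 were used. The authors assigned reads to protein-coding GENCODE transcripts of GRCm38 and deposited expected counts (estimated counts) summed per gene, without normalization. The deposited TPM values were used for no test. Of 21203 genes, 17131 passed edgeR's filterByExpr. Counts were rounded, scaled by TMM and compared by edgeR 4.0.16's two-sided quasi-likelihood test (limma 3.58.1 and DESeq2 1.42.0 as alternatives, in R 4.3.3) in 1 fit of 7 groups and all 34 libraries. The Sham interaction was fitted with Sham split by week. Log2 CPM used a prior count of 2. The labels state separate mice, and p-values measure the spread between mice. A number in the labels differs between the PBS groups, so anything that went with it cannot be told apart from the week. The test was tried on simulated data beforehand. Lists and members were chosen with earlier results of these data known. Genes were named as the largest changes (8 each way), the first and up to 2 called genes of each list, up to 10 genes differing from Sham at 3 wpi, up to 5 per interaction and up to 6 kept genes. Exceptions are stated where they occur. A few genes that the rule names are not reported here. Columns of the authors' own comparisons were not used. Promoters came from RefSeq, positions from GENCODE.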

Additional observations from a re-analysis of the deposited data

Results flagged for a closer look

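Of 294 values of genes, lists and library totals over the 5 PBS mice at 1 wpi or the 4 at 3 wpi, 22 had a mouse that stood apart by Dixon's test, where chance gives about 1 in 20. In PBS 1 wpi replicate 2, high values were Hcar2 at 5.11 CPM (0.507 to 0.793 in the other mice), Slfn4 at 17.4 (0.951 to 1.88), Cd14 at 9.83 (3.83 to 4.57), Psmb8 at 6.20 (4.95 to 5.04), Col1a1 at 56.2 (27.2 to 32.8), S100a8 at 4.50 (0.733 to 1.05) and Casp12 at 1.51 CPM (1.13 to 1.23). The same mouse had high scores (mean log2 CPM) of the extracellular matrix list, 4.67 against 4.243 to 4.304, and of the hippocampus markers, 4.49 against 4.20 to 4.25. It was low in Apoe, 988 CPM against 1353 to 1477, in Ttr, 292 CPM against 579 to 685, and in the respiratory chain score, 6.78 against 7.001 to 7.08. PBS 1 wpi replicate 0 was low in Ccl12, 1.43 CPM against 2.09 to 2.42, and Tlr7, 7.005 CPM against 9.30 to 9.56. PBS 1 wpi replicate 1 was high in Gusb, 35.1 CPM against 22.2 to 23.04, and in total estimated counts, 40748040 against 31269634 to 33936115.

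At 3 wpi, PBS replicate 1 was low in Ttr, 7.80 CPM against 481 to 906, in Vcam1, 22.4 CPM against 30.5 to 32.1, and in Plin2, 3.77 CPM against 5.28 to 5.34. PBS replicate 0 was low in Tlr13, 2.12 CPM against 2.52 to 2.61. PBS replicate 3 was high in the score of MHC class I and interferon-gamma GTPases, 3.09 against 2.76 to 2.80, and low in that of immediate early genes, 4.55 against 4.89 to 4.95.

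By the interaction term (edgeR), the change between the weeks in PBS differed from that in IL-4 MSCs in 808 genes and from that in Sham in 896. Only the 10 named genes, those with the smallest p in each comparison, are listed here. The log2 change in PBS minus that in IL-4 MSCs was 2.76 in Ccl9 (adjusted p = 8.55e-11), 2.51 in Anpep (7.42e-10), 6.50 in Ccl24 (9.32e-10), 3.20 in Mrc1 (1.34e-09) and 3.95 in Mgl2 (1.24e-08). The log2 change in PBS minus that in Sham was -1.98 in Tlr7, -3.34 in Top2a and -2.27 in Uhrf1 (adjusted p = 3.64e-04 each), and -0.84 in Cldn11 and -1.99 in Kif11 (5.23e-04 each).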

How the results depend on the processing

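The 105 named genes with counts in PBS mice were recomputed under 29 alternatives. Of the 69 that had passed, 0 changed direction, and 24 lost the call without at least 1 mouse (Arg1, C4b, Ccl5, Cd14, Ctss, Fdft1, Fn1, Gm29695, H2-K1, Hcar2, Il1rapl2, Lilr4b, Ly9, March10, Nsdhl, Olfr137, Olig1, Slfn4, Snap25, Sytl2, Tgfb1, Trf, Vcam1 and Vcan). Leaving out 1 mouse (Sham mice, and the thalamus and choroid plexus scores below, were added after seeing the data), 539 (without PBS 3 wpi replicate 1) to 894 genes fell and 27 to 146 rose. The counts ranged from 1615 to 2396 for PBS at 1 wpi against Sham, 0 to 6 at 3 wpi against Sham, 0 to 3 for the difference from MSCs, 572 to 974 from IL-4 MSCs and 79 to 1485 from Sham. The rises fell to 42, 53, 43 and 27 without PBS 1 wpi replicates 1 and 2 and 3 wpi replicates 0 and 1. With a log2 change of at least 1 required, 217 genes fell, 1 rose, 414 differed from Sham at 1 wpi, and 233 and 307 changes differed from IL-4 MSCs and Sham. With only the compared groups fitted, 30 rose and 0 differed from Sham at 3 wpi. By library size only 64 rose. With covariates, 161 (striatum) and 62 (choroid plexus) rose, 9 differed from Sham at 3 wpi (thalamus), and 371 (striatum), 543 (thalamus) and 135 (choroid plexus) changes differed from Sham. Against Sham of the same week, 29 differed at 3 wpi. By limma-voom 3 differed from Sham at 3 wpi. By DESeq2 191 rose, 13 differed from Sham at 3 wpi, and 6 and 1353 changes differed from MSCs and Sham. The cause of these moves was not tested. Replicate numbers do not pair the mice, whose deviations correlated between the PBS groups at -0.07, -0.22, 0.02 and 0.20 for numbers 0 to 3. With the replicate block 862 genes fell, 117 rose and 481 changes differed from Sham. With the interval widened to -1 to 1, 1292 genes higher in MSC mice kept in place of 801. Signs turned only in genes that had not passed. Mbp read -0.00682 and Apoe -0.0115 by library size only. With a score as covariate, Prox1 read 0.00581 (striatum), 0.0229 (hippocampus), 0.118 (thalamus) and 0.0642 (choroid plexus), Tcf7l2 0.093 (thalamus) and 0.0207 (choroid plexus), and Dcn -0.0353 and -0.0996. Without 1 mouse, log2 changes ranged over -0.096 to 0.0528 for Prox1, -0.0485 to 0.0803 for Mbp, -0.0871 to 0.0648 for Apoe, -0.644 to 0.219 for Ttr, -0.0251 to 0.398 for Dcn, -0.657 to 0.0247 for Krt5, -1.05 to 0.0323 for Hba-a1 and -0.168 to 0.0071 for Anpep. At these depths, genes near 3 counts, among them several chemokines at 3 wpi, have fold changes of unknown size.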

Other observations

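Arntl led a search of 14 circadian genes, chosen after its rise was seen. Ciart, Per3, Nr1d2 and Bhlhe41, which repress or follow the clock, fell between the weeks in PBS, by 0.62, 0.33, 0.19 and 0.26 on the log2 scale (edgeR adjusted p = 4.95e-04, 0.00683, 0.0289 and 0.00135). Per3 read 58.5 to 71.3 CPM at 1 wpi and 42.9 to 56.4 CPM at 3 wpi. The other 9, Clock, Npas2, Per1, Per2, Cry1, Cry2, Dbp, Nr1d1 and Tef, did not pass, with adjusted p from 0.0744 to 0.940. The hour at which tissue was taken is not given in the sources used here, and its part in these values was not tested.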
